A study of Mus musculus with 43 samples.

Results

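10 genes of the heterogeneous nuclear ribonucleoprotein (hnRNP) and polypyrimidine tract binding families were followed here through a mouse study of the arginine methyltransferase gene Prmt1 in the testis. The genes were Hnrnpa1, Hnrnpa2b1, Hnrnpa3, Hnrnpc, Hnrnpd, Hnrnpk, Hnrnpl, Hnrnpu, Ptbp1 and Ptbp2, which were chosen by name and matched by symbol to 10 of the 55401 gene identifiers in the expression tables. The rule itself uses no measured value. All 10 passed the filters on low counts in both RNA assays.

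The samples came from C57BL/6J mice at postnatal day 7 (P7) and day 14 (P14). In the mutant, called Prmt1-dKO here, a Ddx4-CreERT2 knock-in and a Prmt1 lox/lox allele with floxed exons 4 and 5 were combined, and tamoxifen was given for 3 days. The Ddx4 promoter drives the Cre in germ cells, and Prmt1 in the other cells of a mutant testis was not measured apart here. Bulk RNA-seq compared 3 WT with 3 Prmt1-dKO libraries at P7, which the labels call spermatogonia while the protocol describes RNA of whole testis. Smart-seq2 compared 2 WT with 2 Prmt1-dKO libraries, each made from sorted GFP-positive spermatogonia at P7; the methods name heterozygous Ddx4-GFP-CreERT2 Prmt1 +/lox animals as the controls, so these carried Cre and 1 deletable copy as well. CUT&Tag, which maps a histone mark by antibody-directed tagmentation, gave 33 peak lists from strained cells of seminiferous tubules for H4R3me2a, H4R3me2s, H4R3me1, H3R2me2a, H3R8me2a, H3K27ac and H3K4me3. All CUT&Tag lists were from WT mice at P7 or P14 except 2 of H4R3me2s from P7 Prmt1-dKO. The P14 samples carry spermatogonia in their titles and spermatocyte in their cell type label.

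Total expected counts were 12396345 to 16598249 in the bulk libraries and 15610392 to 18547103 in the Smart-seq2 libraries. The Prmt1 gene itself, the check of the labels, was at 237, 219 and 247 CPM (counts scaled to the library total with TMM factors within an assay) in bulk WT and 146, 199 and 158 CPM in bulk Prmt1-dKO, which was a fall by 0.49 on the log2 scale (SE 0.13, edgeR quasi-likelihood FDR 0.0334). In Smart-seq2 Prmt1 was at 216 and 149 CPM in WT and 112 and 86.5 CPM in Prmt1-dKO (FDR 0.133). The Smart-seq2 WT libraries held at least 1 count for 17069 and 15572 genes and the Prmt1-dKO libraries for 21350 and 20159 genes, so the libraries of that assay differed in detected genes along with genotype. The biological coefficient of variation was 0.767 in Smart-seq2 and 0.155 in bulk.

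hnRNP proteins coat nascent pre-mRNA and act in splice site choice, export and stability of transcripts. Many of them carry arginine-rich RGG boxes and are among the main nuclear proteins that hold asymmetric dimethylarginine, the modification that the PRMT1 enzyme makes. PTBP1 and its paralog PTBP2 bind pyrimidine-rich RNA and mostly repress the exons next to it. PTBP2 is best known from neurons and male germ cells, and PTBP1 protein is known to block inclusion of exon 10 of the Ptbp2 transcript, which leaves an mRNA that is degraded.

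In GRCm38, by GENCODE vM21, Hnrnpa1 at chr15:103240432-103246692, Hnrnpa3 at chr2:75659261-75669407, Hnrnpl at chr7:28808541-28822266 and Ptbp1 at chr10:79854427-79864771 lie on the plus strand. On the minus strand lie Hnrnpa2b1 at chr6:51460932-51469894, Hnrnpc at chr14:52073377-52104028, Hnrnpd at chr5:99955935-99978938, Hnrnpk at chr13:58391142-58403343, Hnrnpu at chr1:178321108-178337797 and Ptbp2 at chr3:119718742-119784466.

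Sequences are shown where the data bear on them, that is for promoters that differed in their arginine marks and for the Ptbp2 exon. They were read from the GRCm38.p6 reference 5′ to 3′ on the strand of the gene. The promoters are the 250 bases before the start in the RefSeq table, which held all 10 genes, and capitals mark matches on either strand to the letters CCAAT, to CCGGAAG, to GGGCGG or to TATAAA. The stretches are chr6:51469895-51470144 (minus strand) for Hnrnpa2b1, chr15:103240147-103240396 (plus strand) for Hnrnpa1, chr10:79854182-79854431 (plus strand) for Ptbp1 and chr2:75659009-75659258 (plus strand) for Hnrnpa3. Peaks were counted by a summit within 3000 bp of any annotated transcript start, a wider window than the bases shown. By that count Hnrnpa2b1 had a peak in 9 and Hnrnpa1 in 8 of the 11 arginine-mark lists of P7 WT cells. Ptbp1 had one in 3, and Hnrnpa3 in 0. Many of these summits for Hnrnpa2b1 and Hnrnpa1, and all for Ptbp1, lay outside the printed bases.
Hnrnpa2b1 promoter: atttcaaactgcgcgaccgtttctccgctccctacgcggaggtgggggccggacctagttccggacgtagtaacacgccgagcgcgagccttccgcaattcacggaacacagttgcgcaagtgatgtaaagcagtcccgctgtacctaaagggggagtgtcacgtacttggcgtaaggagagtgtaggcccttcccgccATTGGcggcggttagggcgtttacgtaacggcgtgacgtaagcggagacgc
Hnrnpa1 promoter: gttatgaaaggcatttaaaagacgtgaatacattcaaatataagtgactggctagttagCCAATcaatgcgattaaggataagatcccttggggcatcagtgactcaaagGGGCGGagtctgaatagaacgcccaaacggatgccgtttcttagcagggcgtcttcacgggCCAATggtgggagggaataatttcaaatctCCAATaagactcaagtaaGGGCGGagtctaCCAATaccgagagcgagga
Ptbp1 promoter: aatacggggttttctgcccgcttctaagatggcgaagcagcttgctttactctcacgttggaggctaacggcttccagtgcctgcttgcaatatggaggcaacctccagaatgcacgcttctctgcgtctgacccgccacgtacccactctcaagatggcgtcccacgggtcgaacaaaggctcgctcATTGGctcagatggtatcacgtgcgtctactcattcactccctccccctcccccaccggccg
Hnrnpa3 promoter: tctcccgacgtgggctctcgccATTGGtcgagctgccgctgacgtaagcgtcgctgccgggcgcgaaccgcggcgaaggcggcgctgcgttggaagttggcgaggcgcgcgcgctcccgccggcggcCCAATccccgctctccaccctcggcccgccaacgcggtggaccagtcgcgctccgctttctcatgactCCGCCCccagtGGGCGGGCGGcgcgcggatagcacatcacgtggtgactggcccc

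Over windows of 300 bases, from 250 before to 50 after the start, the letters CCAAT were found on either strand in 7 of the 10 genes and in 37.4% of all 32841 promoter windows. GGGCGG was in 7 of 10 against 35.7%, CCGGAAG in Hnrnpd alone against 8.86%, and TATAAA in 0 against 13.6%. TGACGTCA was in 0 of 10 and in 1.79% of all windows. A match is a description of the letters and not a binding site. The Hnrnpa1 window had the lowest CpG number of the 10, 16 in 300 bases, and the Hnrnpd window the highest, 45, while the median over all promoters was 7. The Ptbp2 window had a GC content of 74.7%, the highest of the 10, and the Hnrnpa1 window 48.3%, the lowest.

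The coding exon of Ptbp2 that PTBP1 is known to repress is 34 bases long and is the 10th of the full-length transcript (chr3:119724612-119724645). Of the 6 annotated transcripts that span it, 3 contain it. It is shown with the last 100 bases of the intron before it (chr3:119724612-119724745, minus strand), and the exon is in capitals.
Ptbp2 exon: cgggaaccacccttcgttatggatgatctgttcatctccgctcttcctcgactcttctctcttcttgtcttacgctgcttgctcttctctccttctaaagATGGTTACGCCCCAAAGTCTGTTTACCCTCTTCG
Of these 100 intron bases 73.0% were C or T, against a median of 53.0% (31.0% to 74.0%) before the 129 internal exons of the 10 genes. Only 1 of those exons had more. The expression tables give 1 value per gene, so inclusion of this exon was not measured here.

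The levels of the 10 genes in unperturbed whole testis were compared by TPM, a share of the transcripts of a library that divides by length. In bulk WT libraries Hnrnpa2b1, which sorts and carries mRNAs, was highest at 1227 ± 22.4 TPM (SD, n = 3). Next came Hnrnpa1, a repressor of splice sites, at 737 ± 28.2 TPM and Hnrnpk, a binder of C-rich RNA, at 733 ± 65.9 TPM, whose libraries overlapped. Hnrnpa3, a close relative of Hnrnpa1 and Hnrnpa2b1, was at 592 ± 19.2 TPM and lay apart from both neighbours. Hnrnpu, a nuclear scaffold protein that binds RNA and chromatin, was at 509 ± 33.6 TPM and overlapped with Hnrnpl, a reader of CA repeats, at 488 ± 21.5 TPM.

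Ptbp1 at 357 ± 26.4 TPM overlapped with Hnrnpc, a binder of U-rich tracts, at 331 ± 9.46 TPM. Hnrnpd, which binds AU-rich elements of unstable mRNAs, followed at 293 ± 15.1 TPM, and Ptbp2 was lowest at 41.7 ± 7.72 TPM. Of the 9 neighbouring pairs in this order, 6 did not overlap.

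The order was another in sorted WT spermatogonia. Hnrnpk was highest at 1154 ± 138.0 TPM (SD, n = 2), followed by Hnrnpa2b1 at 493 ± 77.3 TPM, Hnrnpu at 290.2 ± 12.7 TPM and Hnrnpc at 229 ± 10.1 TPM, all apart from each other. Hnrnpl at 118 ± 6.3 TPM, Hnrnpa1 at 103 ± 30.3 TPM, Hnrnpa3 at 84.7 ± 8.78 TPM, Ptbp1 at 70.1 ± 22.0 TPM and Ptbp2 at 52.9 ± 24.9 TPM formed a run in which each neighbour overlapped with the next. Hnrnpd was lowest at 26.1 ± 1.84 TPM. The assays differ in library chemistry and input, so their levels are set side by side and were not tested against each other.

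**Figure D1:**
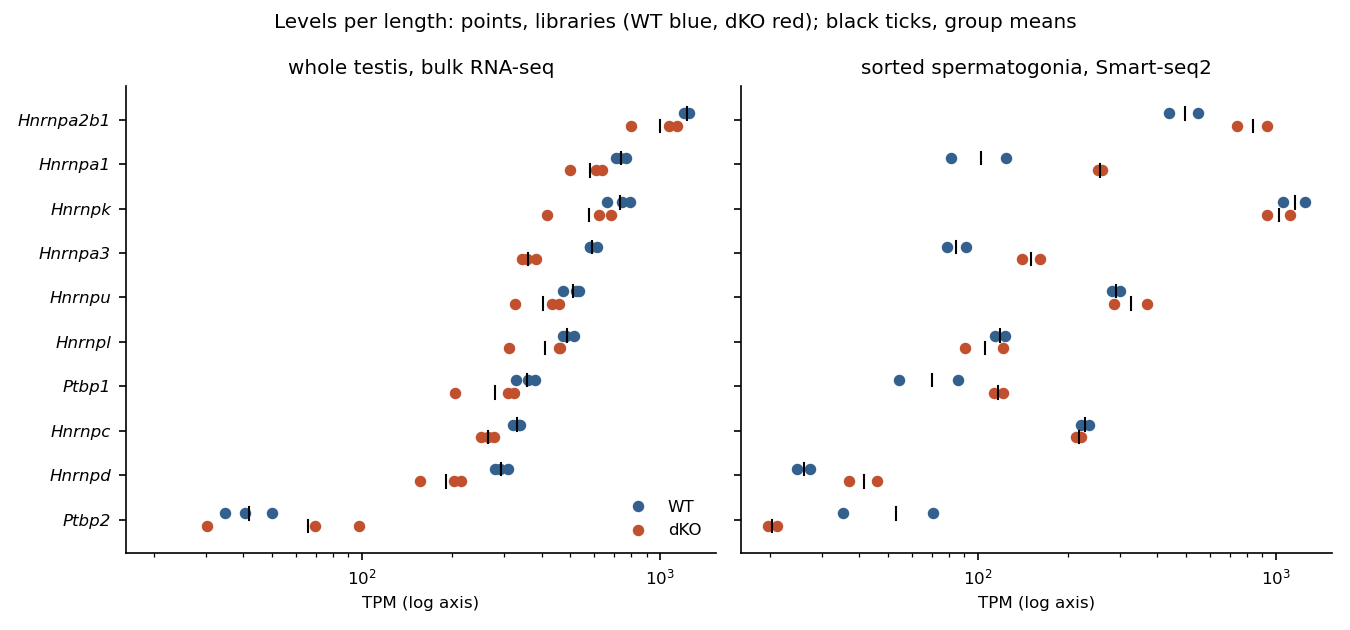
TPM of the 10 genes in every library, on a log axis, with bulk RNA-seq and Smart-seq2 in separate panels a point for each library and a tick for each group mean. Ptbp2 is the lowest gene in bulk WT at 41.7 TPM, and Hnrnpk the highest in Smart-seq2 WT at 1154 TPM.

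In the bulk comparison, which asked how the whole P7 testis differed with Prmt1 deleted in germ cells, Hnrnpd and Hnrnpa3 fell and the other 8 genes did not pass the test. Hnrnpd was at 266, 242 and 259 CPM in WT and at 172, 157 and 189 CPM in Prmt1-dKO. The 3 mutant libraries lay below all 3 WT libraries, and the fall by 0.57 on the log2 scale (SE 0.11, FDR 0.00772) made Hnrnpd 1.49-fold lower. Hnrnpa3 was at 692, 639 and 696 CPM in WT and at 513, 554 and 533 CPM in Prmt1-dKO. Again the genotypes did not overlap, and it fell by 0.34 on the log2 scale (SE 0.098, FDR 0.0401), or 1.27-fold. In bulk RNA a smaller number of cells of a type and less RNA per cell cannot be told apart.

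The calls, more than the sizes of the differences, depended on single libraries. Without WT replicate 1 the FDR of Hnrnpd was 0.0539 at a log2 difference of -0.56, and it stayed under the threshold when any other library was left out. The FDR of Hnrnpa3 was 0.153, 0.0885 and 0.126 without WT replicate 1, 2 or 3, 0.0667 and 0.0634 without mutant replicate 1 or 3, and 0.00521 without mutant replicate 2, with log2 differences of -0.40 to -0.33 in these fits. The study describes its replicates as biological, and the labels do not tie libraries to animals.

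A further 5 genes had every Prmt1-dKO library below every WT library without passing the test. Hnrnpa1 was at 751, 715 and 732 CPM in WT and at 623, 618 and 708 CPM in Prmt1-dKO (log2 difference -0.17, FDR 0.27). Hnrnpa2b1 was at 1020.0, 989 and 1033 CPM in WT and at 897, 784 and 888 CPM in Prmt1-dKO (-0.24, FDR 0.128). Hnrnpu was at 1035, 1062 and 1019 CPM against 941, 863 and 906 CPM (-0.20, FDR 0.179). The highest mutant library nearly reached the lowest WT library for Hnrnpa1 and lay further below it for the other genes.

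Ptbp1 was at 556, 556 and 529 CPM in WT and at 488, 405 and 521 CPM in Prmt1-dKO (-0.21, FDR 0.237). Hnrnpc was at 299.8, 288 and 312 CPM in WT and at 259.7, 278 and 276 CPM in Prmt1-dKO (-0.14, FDR 0.327). For Ptbp1 replicate 2 of the mutant was the low library and replicate 3 came close to WT.

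The remaining 3 genes overlapped between genotypes. Hnrnpk was at 765, 758 and 727 CPM in WT and at 679, 545 and 795 CPM in Prmt1-dKO (-0.16, FDR 0.47). Hnrnpl was at 446, 444 and 448 CPM in WT and at 426, 387 and 468 CPM in Prmt1-dKO (FDR 0.713). Mutant replicate 2 was lowest and replicate 3 highest for both genes, on either side of the WT libraries.

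Ptbp2 was the gene with a mean above WT. It was at 51.9, 58.4 and 50.3 CPM in WT and at 82.1, 49.3 and 122.0 CPM in Prmt1-dKO, a log2 difference of 0.66 (SE 0.27, FDR 0.119). Mutant replicates 1 and 3 lay above the WT libraries and replicate 2 below them. Without mutant replicate 2 the FDR was 0.000162, and without the filter on low counts, with all 3 libraries, it was 0.0157.

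**Figure D2:**
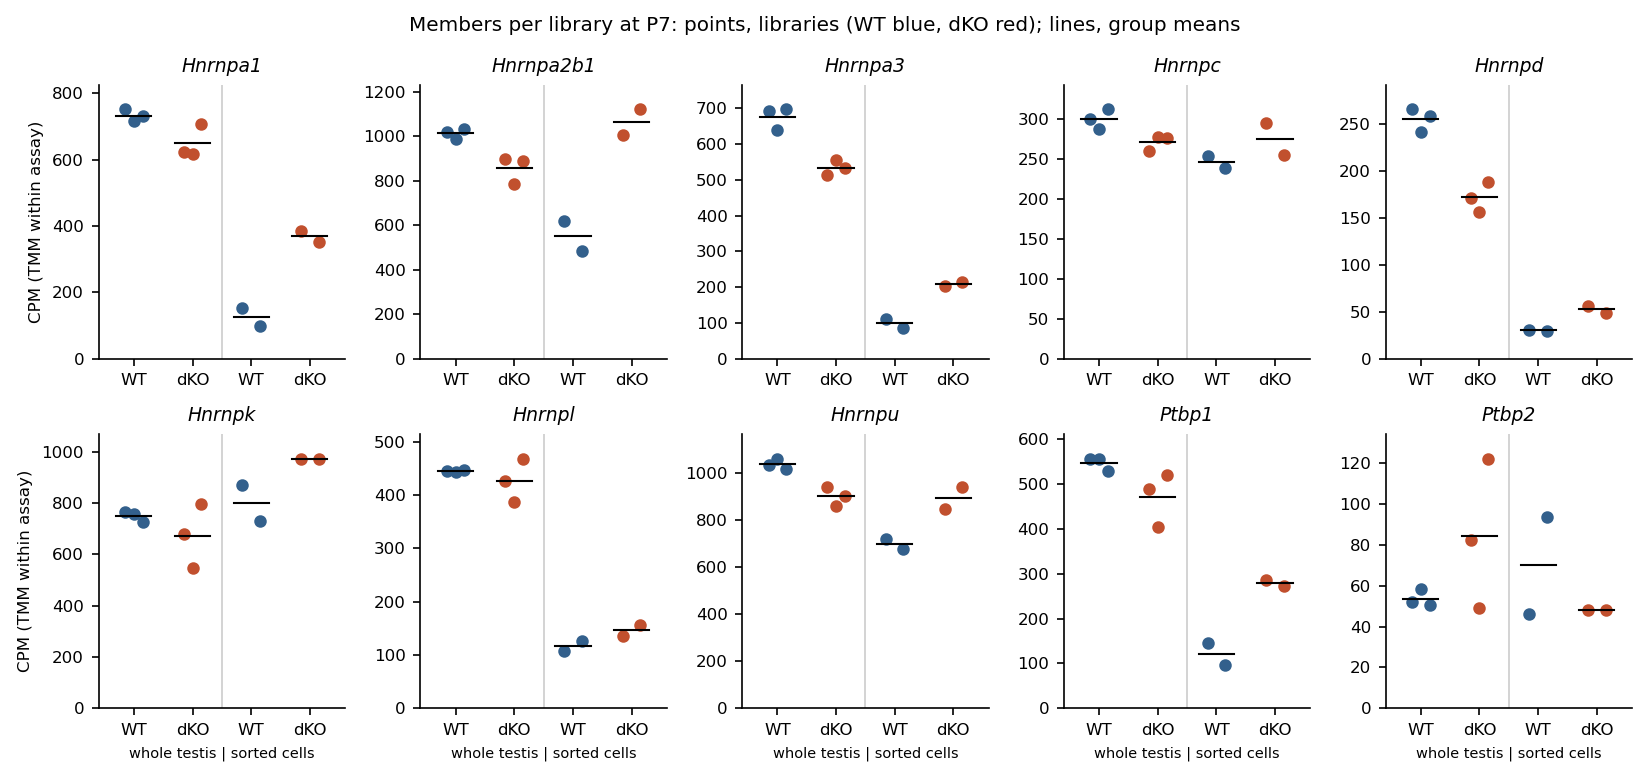
CPM of each of the 10 genes in every library, WT and Prmt1-dKO side by side, with a panel for each gene, the points being libraries and the lines group means (whole testis on the left, sorted cells on the right). In bulk the 3 Prmt1-dKO libraries of Hnrnpd sit at 157 to 189 CPM, below the WT libraries at 242 to 266 CPM, and those of Ptbp2 spread from 49.3 to 122.0 CPM.

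The background of the bulk test was broad. Over all 16554 genes tested, 8.51% were called lower and 10.6% higher in Prmt1-dKO, and 7.1% passed both the FDR and a 2-fold change. Of the 10 genes, 2 were called lower, 0 higher and 0 at 2-fold, and a count of 2 in 10 lies close to that share. In 7 of the 10 genes all mutant libraries lay below all WT libraries, against 19.9% of all genes, and in 0 above, against 20.9%. The median log2 difference of the 10 genes was -0.19 and that of all genes tested 0.02, and 9 of the 10 were below 0.

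Several lists of somatic cell markers moved in the same bulk libraries. Of 8 Sertoli cell markers tested, 4 were called lower and 0 higher (median -0.37), and their summed level was 5663 to 6075 TPM in WT and 3995 to 4452 TPM in Prmt1-dKO. Leydig cell markers were at 624 to 724 TPM in WT and 164 to 185 TPM in Prmt1-dKO, with 4 of 6 called lower and 1 higher. Peritubular markers fell in 4 of 5 cases, from a summed 827 to 899.9 TPM to 290.4 to 507 TPM. Macrophage markers, with 0 of 4 tested called, were at 40.3 to 51.9 TPM in WT and 40.4 to 54.8 TPM in Prmt1-dKO. Endothelial markers, with 1 of 3 called higher and 1 lower, were at 59.8 to 71.2 TPM and 48.9 to 72.5 TPM. Of 10 germ cell markers 1, the RNA helicase Ddx4, was called lower, and their sum was 1525 to 1783 TPM in WT and 1410 to 1490.1 TPM in Prmt1-dKO. The part of these shifts in the bulk values of Hnrnpd and Hnrnpa3 was not tested.

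On CPM in sorted spermatogonia 9 of the 10 genes had both Prmt1-dKO libraries above both WT libraries, a pattern that 36.3% of all 16443 genes tested shared. In 0 of the 10 were both Prmt1-dKO libraries below both WT libraries, against 20.3%. On TPM only Hnrnpa1, Hnrnpa2b1, Hnrnpa3, Hnrnpd and Ptbp1 kept the mutant libraries above WT. Hnrnpu, Hnrnpk and Hnrnpl overlapped on that scale, and Hnrnpc and Ptbp2 lay below WT. The edgeR test called 0 of the 10 genes and 0.0% of all genes in either direction, and its smallest FDR over all genes was 0.0774. At an unadjusted p under 0.05 it found 23.8% of all genes and 5 of the 10, Hnrnpa1, Hnrnpa2b1, Hnrnpa3, Hnrnpd and Ptbp1. The median log2 difference was 0.58 over the 10 genes and 0.15 over all genes tested.

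Hnrnpa1 had the largest difference of the 10. It was at 153 and 98.7 CPM in WT and at 384 and 353 CPM in Prmt1-dKO, a log2 difference of 1.55 (SE 0.26, edgeR FDR 0.0774). Hnrnpa3 was at 112 and 85.9 CPM in WT and at 202 and 215 CPM in Prmt1-dKO, a difference of 1.08 (SE 0.20, FDR 0.0774). The lowest mutant library was well above the highest WT library for both genes.

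Hnrnpa2b1, already high in WT at 619.6 and 486 CPM, was at 1006 and 1121 CPM in Prmt1-dKO, a difference of 0.94 (SE 0.18, FDR 0.0774). Ptbp1 was at 146 and 96.8 CPM in WT and at 286 and 273 CPM in Prmt1-dKO, a difference of 1.2 (SE 0.24, FDR 0.0774). Hnrnpd was at 31.0 and 29.8 CPM in WT and at 56.5 and 49.3 CPM in Prmt1-dKO, a difference of 0.80 (SE 0.29, FDR 0.196). All 3 were thus between 1.74-fold and 2.3-fold higher in the mutant by their fitted values, with WT replicate 2 the lowest library of each.

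Hnrnpu, Hnrnpk, Hnrnpl and Hnrnpc differed less. Hnrnpu was at 722 and 677 CPM in WT and at 847 and 942 CPM in Prmt1-dKO (0.35, FDR 0.231). Hnrnpk was at 869.8 and 731 CPM in WT and at 971 and 972 CPM in Prmt1-dKO (0.28, FDR 0.38). Hnrnpl was at 107 and 127 CPM against 136 and 157 CPM (0.33, FDR 0.395). On CPM the genotypes did not overlap in these 3 genes, and the gap between them was wider than the spread of either genotype for Hnrnpu but not for Hnrnpk or Hnrnpl.

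Hnrnpc was at 254 and 239 CPM in WT and at 295 and 255 CPM in Prmt1-dKO (0.16, FDR 0.645), which left the lower mutant library next to the higher WT library. On TPM the order of the group means turned for Hnrnpc (229 in WT and 218 in Prmt1-dKO), Hnrnpk (1154 and 1025) and Hnrnpl (118 and 106).

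Ptbp2 was the exception, at 46.2 and 93.8 CPM in WT and at 48.1 and 48.1 CPM in Prmt1-dKO (-0.54, SE 0.40, FDR 0.526). On CPM the mutant libraries lay between the WT libraries. The sign of the edgeR difference of Ptbp2 rested on WT replicate 2, since without that library it was 0.075. On TPM both mutant libraries of Ptbp2 (21.1 and 19.8) lay below both WT libraries (35.3 and 70.6).

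The count of members called in Smart-seq2 depended on the tool and on single WT libraries. DESeq2 called 4 of the 10 higher, Hnrnpa1 (adjusted p = 1.42e-06), Hnrnpa2b1 (1.07e-05), Hnrnpa3 (0.000419) and Ptbp1 (0.000433), where it called 8.7% of all genes higher. limma-voom called Hnrnpa1 (FDR 0.0406) and Hnrnpa2b1 (FDR 0.0464) higher, and 9.6% of all genes in that direction. Without WT replicate 1 edgeR called these 4 genes and Hnrnpd higher and Ptbp2 lower (-0.95, FDR 0.00128), against 34.1% of all genes called higher and 17.1% called lower in that fit. Without WT replicate 2 it called the same 5 genes higher, against 27%, and without either mutant library it called 0. In each of these fits 1 library stands alone in its group and is assumed to vary like the pair in the other.

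The scale of the Smart-seq2 comparison also moved with the method and with the genes included. Over the 16443 filtered genes the median log2 difference was 0.15 with the main scaling, 0.11 with RLE size factors and 0.40 with limma-voom. Without the filter on low counts, over 24498 genes, it was 0.28 with the main scaling and 0.25 with DESeq2. Relative to the median of the same fit 9 of the 10 genes were higher with the main scaling, 9 with RLE size factors and 5 with limma-voom. Without the filter 7 were higher with the main scaling and 7 with DESeq2.

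Markers of other cells were mostly low in the sorted libraries. Summed Sertoli cell markers were at 222 to 249 TPM in WT and 348 to 486 TPM in Prmt1-dKO, and germ cell markers at 1659 to 1665 TPM and 1835 to 1898 TPM. Macrophage markers were at 0 for 5 of 5 genes in WT and summed to 10.3 to 13.0 TPM in Prmt1-dKO. Endothelial markers were at 0 for 3 of 3 genes in WT and at 0.68 to 0.91 TPM in Prmt1-dKO. Peritubular markers were at 4.61 to 7.95 TPM in WT, with 3 of 5 genes at 0, and at 3.76 to 4.06 TPM in Prmt1-dKO. Leydig cell markers were at 0.12 to 6.97 TPM in WT, with 5 of 6 genes at 0, and at 4.74 to 8.13 TPM in Prmt1-dKO, with 3 at 0. Their part in the Smart-seq2 differences was not tested.

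The genotype difference in sorted spermatogonia was then set against that in whole testis, as an interaction term in a single edgeR fit over all 10 libraries and 19608 genes. It was called for 6 of the 10 genes, all with a higher Smart-seq2 difference, against 14.7% of all genes, and for 0 in the other direction, against 4.24%. Hnrnpa1 had the largest difference between the assays, 1.81 on the log2 scale (SE 0.25, FDR 0.0016). Hnrnpa3 followed with 1.51 (SE 0.18, FDR 0.00084), Ptbp1 with 1.5 (SE 0.26, FDR 0.00472), Hnrnpd with 1.46 (SE 0.18, FDR 0.000892) and Hnrnpa2b1 with 1.27 (SE 0.19, FDR 0.00223).

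Hnrnpu passed with 0.64 (SE 0.14, FDR 0.0143), and that call was lost when bulk WT replicate 1, 2 or 3 was left out (FDR 0.0835, 0.0883 and 0.0754) or without bulk Prmt1-dKO replicate 3 (0.0579). Hnrnpk (0.52, FDR 0.159), Hnrnpl (0.48, FDR 0.105) and Hnrnpc (0.39, FDR 0.108) did not pass. Hnrnpk passed without Smart-seq2 WT replicate 1 (0.67, FDR 0.0464) and Hnrnpl without Smart-seq2 WT replicate 2 (0.61, FDR 0.0386). Ptbp2 differed in the other direction (-1.11, SE 0.55, FDR 0.197) and passed without Smart-seq2 WT replicate 1 (-1.52, FDR 0.0174). The fit shares 1 estimate of the spread between assays whose own spreads differ, and cell sorting, library chemistry and the control genotype (labelled WT in bulk, heterozygous with Cre by the methods in Smart-seq2) cannot be told apart in it.

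Markers of somatic cells were called in the same interaction. Of 9 Sertoli cell markers 4 were called higher and 0 lower (median 1.0), and of 10 germ cell markers 1 was called higher (median 0.65). Higher calls were also made for 3 of 3 endothelial, 3 of 5 macrophage and 2 of 6 Leydig cell markers, and for 3 of 5 peritubular markers, of which 1 more was called lower. The median interaction was 0.96 over the 10 genes and 0.22 over all genes tested, and the part of the markers' cells in it was not tested.

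**Figure D3:**
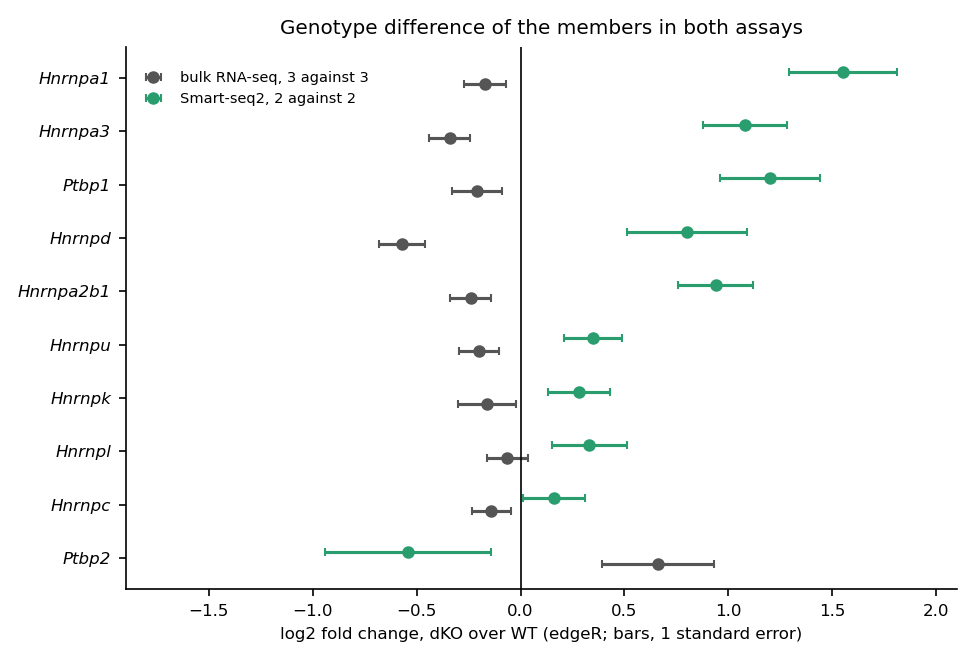
Log2 difference of Prmt1-dKO minus WT for the 10 genes in bulk RNA-seq and Smart-seq2, with bars of 1 SE. Hnrnpa1 lies at -0.17 in bulk and 1.55 in Smart-seq2, and Ptbp2 at 0.66 and -0.54.

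The paralogs Ptbp1 and Ptbp2 were also read as a ratio of TPM within each library, as a description. The ratio was 8.92, 7.63 and 9.49 in bulk WT and 4.44, 6.8 and 3.32 in bulk Prmt1-dKO. In Smart-seq2 it was 2.42 and 0.772 in WT and 5.34 and 6.11 in Prmt1-dKO. The genotypes did not overlap in either assay and lay in opposite order. With 3 against 3 libraries an exact permutation test cannot go below 0.1, and with 2 against 2 not below 0.333.

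Over the 6 bulk libraries the log2 CPM of Ptbp1 and Ptbp2 had a Pearson r of 0.135, and those of Ptbp1 and Hnrnpk of 0.948. The genes most like Ptbp1 among 12955 genes were Chp1 (0.9994), Hif1a (0.9994) and Tshz1 (0.9986). Those most like Ptbp2 were Zfp280c (0.9985), Mat2b (0.9956) and Acss3 (0.9953), and those most like Hnrnpa1 were Qrsl1 (0.9966), Hmgb1 (0.9918) and Echdc1 (0.9903). These values describe 6 points that share genotype and depth.

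Each gene's table row also gave the length that RSEM averages over its transcripts by their estimated share, so a change of this length marks a change in estimated transcript use. In bulk 0 of the 10 genes passed the limma test on log2 length, where 0.403% of 13412 genes were called longer and 0.201% shorter. Hnrnpa3 had 2021, 1996 and 2047 bases in WT and 2280, 2177 and 2432 bases in Prmt1-dKO (log2 difference 0.18, FDR 0.216). Hnrnpa2b1 had 1536, 1535 and 1537 bases in WT and 1456, 1475 and 1416 bases in Prmt1-dKO (-0.085, FDR 0.184). The genotypes were apart for both genes, longer in the mutant for Hnrnpa3 and shorter for Hnrnpa2b1.

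Hnrnpd had 1607, 1632 and 1594 bases in WT and 1473, 1498 and 1559 bases in Prmt1-dKO (-0.094, FDR 0.246). These 3 genes were the ones at an unadjusted p under 0.05, which 13.7% of all genes reached.

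In Smart-seq2 0 of the 10 genes passed either, where 2.6% of 12541 genes were called longer and 0.742% shorter. Ptbp2 had 1844 and 1872 bases in WT and 2515 and 2976 bases in Prmt1-dKO (0.56, SE 0.11, FDR 0.199). Ptbp1 had 2342 and 2435 bases in WT and 2776 and 2779 bases in Prmt1-dKO (0.22, SE 0.031, FDR 0.13). The genotypes were apart for both paralogs, with the longer estimate in the mutant.

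Hnrnpl had 1388 and 1498 bases in WT and 1733 and 1677 bases in Prmt1-dKO (0.24, FDR 0.248). Hnrnpk had 1085 and 1070 bases in WT and 1270 and 1198 bases in Prmt1-dKO (0.19, FDR 0.228). These 4 genes were at an unadjusted p under 0.05, as were 15.6% of all genes. In both bulk genotypes Hnrnpk was estimated at 1772 to 1902 bases, longer than in any Smart-seq2 library.

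**Figure D4:**
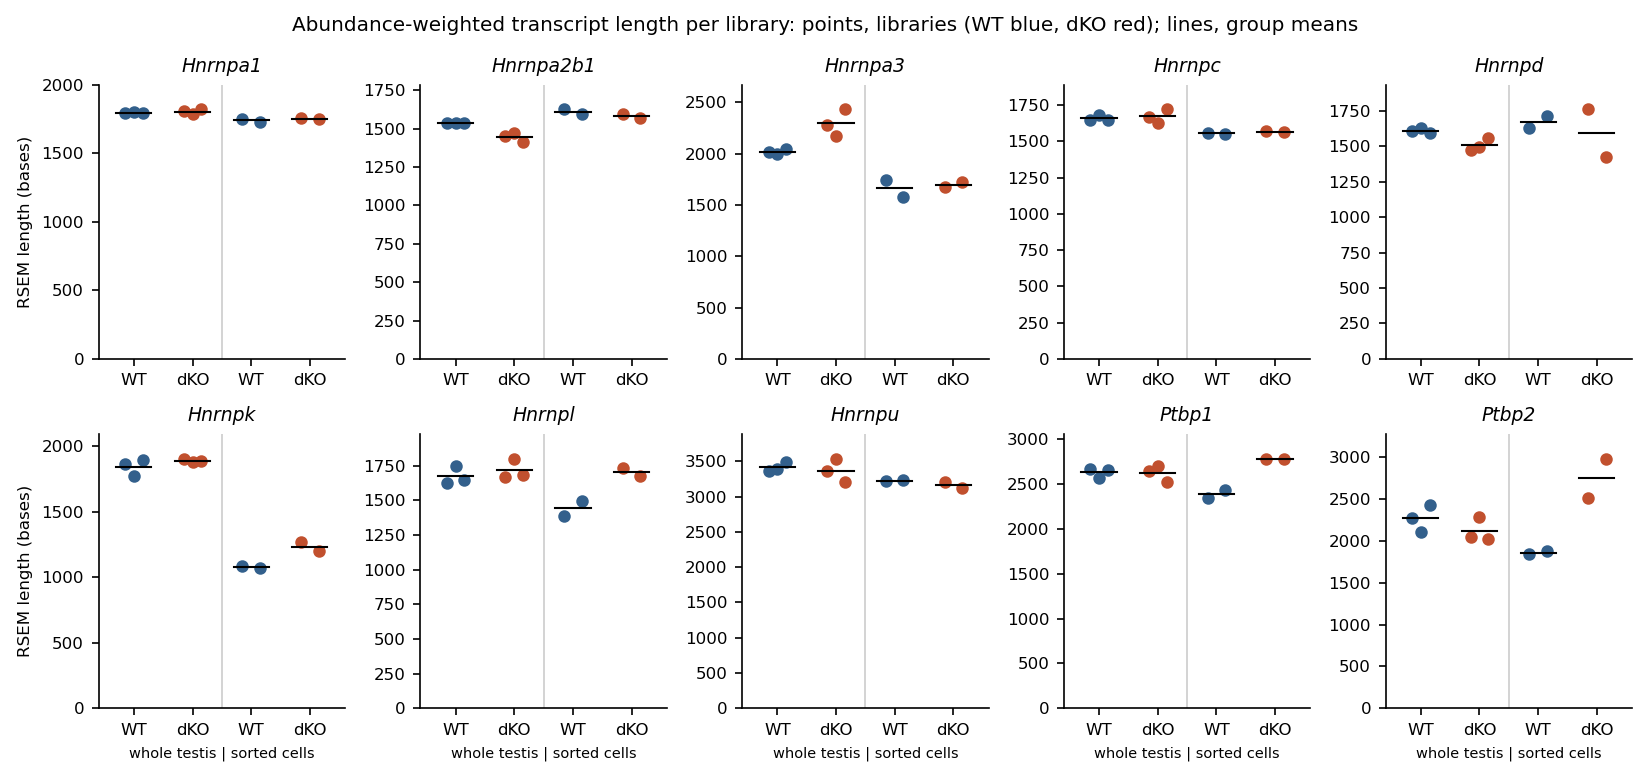
RSEM transcript length in bases, averaged over the transcripts of a gene by estimated share, for the 10 genes, with a point for each library by assay and genotype and a line for each group mean. In Smart-seq2 Ptbp2 lies at 1844 and 1872 bases in WT and at 2515 and 2976 bases in Prmt1-dKO.

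Some of the counts are shared with other genes. Counts were not whole, by a tolerance of 0.005, in 10 of 10 libraries for Hnrnpa3, Hnrnpd, Hnrnpk, Hnrnpu and Ptbp1, in 9 for Hnrnpa1, in 5 for Hnrnpc and in 0 for Hnrnpa2b1, Hnrnpl and Ptbp2, and RSEM had split reads of the former between genes. On the opposite strand Hnrnpk overlaps Rmi1 by 1096 bases, Hnrnpu overlaps Cox20 by 1586 bases and Ptbp1 overlaps Plppr3 by 4297 bases. Hnrnpd overlaps the antisense gene Gm17092 by 1173 bases, which had at most 140.44 counts in any library. Whether the bulk counts used strand is not given in the sources used here, so reads of such pairs cannot be told apart for certain. On the same strand Ptbp2 overlaps Gm42664 by 3239 bases, which had at most 275 counts in any library.

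Other hnRNP genes and partners of the pyrimidine tract gave the context. Of 21 other hnRNP genes tested in bulk, 3 were called lower and 0 higher, with a median log2 difference of -0.11. Hnrnpab, a DNA and RNA binding relative of Hnrnpd, fell from 729 ± 47.9 to 509 ± 41.3 CPM (SD, n = 3, FDR 0.0124 by edgeR). Syncrip, also called hnRNP Q, fell from 229 ± 9.87 to 166 ± 24.3 CPM (FDR 0.0321 by edgeR). Pcbp1, a poly(C) binding protein of the KH domain family that includes Hnrnpk, fell from 300.3 ± 12.6 to 229 ± 21.8 CPM (FDR 0.0343 by edgeR).

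Of 10 partners of the pyrimidine tract, 2 fell and 1 rose in bulk (median -0.10). Raver1, a corepressor that binds PTBP1, fell by 0.58 on the log2 scale (FDR 0.00541). U2af2, the U2AF subunit that reads the tract before an exon, fell by 0.49 (FDR 0.0175). Tial1, which binds U-rich RNA near splice sites, rose by 0.68 (FDR 0.00387). In Smart-seq2 0 genes of either list were called, where 0.0% of all genes were, with medians of 0.27 and 0.05. The interaction was called for 4 of 21 other hnRNP genes upward and 1 downward, and for 1 of 10 partners upward. Over all genes it was called for 14.7% upward and 4.24% downward.

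Promoter peaks, taken as a summit within 3000 bp of an annotated transcript start, were found in 234 of the 330 pairs of gene and peak list. H3K4me3, the mark of active starts, was found at all 10 genes in every list at both ages, where 84.3% of 15478 expressed genes had it in at least 2 lists at P7 and 85.5% at P14. Member peaks of H3K4me3 had a median fold enrichment of 5.13 (3.45 to 6.77) at P7 and 5.77 (3.94 to 7.86) at P14. Ptbp2 had the highest of these at P14, 7.86 and 7.45. By TPM it had the least RNA of the 10 genes in P7 WT whole testis, and Hnrnpd the least in sorted P7 WT spermatogonia. RNA was not measured at P14.

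H3K27ac was found in at least 2 lists at 8 of the 10 genes at P7, against 45.4% of expressed genes, and at 10 at P14, against 69.9%. The gaps at P7 were Hnrnpd, with a peak in 1 of 2 lists, and Ptbp1, with a peak in 0. The median fold enrichment of its peaks was 3.39 at P7 and 5.1 at P14.

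The arginine marks were less frequent at P7 than at P14. At P7 they were found in 48 of 110 pairs of gene and WT list, or 43.6%, and at P14 in 103 of 120, or 85.8%. Over all expressed genes the same shares were 31.4% and 59.0%, with 24.7% to 46.2% of expressed genes marked in the P7 lists and 42.8% to 76.4% in the P14 lists. With every list trimmed to the 15361 strongest peaks, the length of the shortest list, the counts were 45 (40.9% of pairs) and 90 (75%), against 26.4% and 42.0% over all expressed genes. At a q-value of at most 0.01 they were 17 (15.5%) and 67 (55.8%), against 4.69% and 28.4%. The expressed genes as a whole also carried more of these peaks at P14 in each setting given.

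H4R3me2a, the asymmetric mark that PRMT1 deposits on histone H4, was found at P7 in at least 2 of 3 lists at 4 genes, Hnrnpa1, Hnrnpa2b1, Hnrnpd and Hnrnpk, against 20.4% of expressed genes. Hnrnpa1 had fold enrichments of 4.9, 3.6 and 3.1 with summits at -746 to -632 bp from the gene start. Hnrnpa2b1 had 3.4, 4.4 and 6.0 with summits at -317 to -310 bp. Both genes share the window with a divergent neighbour, Cbx5 at 616 bp from the start of Hnrnpa1 and Cbx3 at 466 bp from that of Hnrnpa2b1, so these peaks cannot be given to 1 gene. The same holds for Hnrnpd, whose summits lay at -579 bp in replicate 1 and -364 bp in replicate 3, beyond the start of 4930524J08Rik on the opposite strand at 123 bp.

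Hnrnpk had H4R3me2a at 3.4, 3.9 and 4.2-fold with summits 982 to 1051 bp inside the outermost annotated start, near the start of Rmi1 at 1095 bp. Hnrnpa3, Hnrnpl, Hnrnpu, Ptbp1 and Ptbp2 had an H4R3me2a peak in 0 of 3 lists at P7. At P14 the mark was in at least 2 lists at 8 genes, all but Ptbp1 and Ptbp2, against 63.4% of expressed genes. At a q-value of at most 0.01 the P7 count was 1 gene, Hnrnpa2b1, against 1.13% of expressed genes, and the P14 count 5 (Hnrnpa1, Hnrnpa2b1, Hnrnpc, Hnrnpd and Hnrnpk), against 27.5%. Its median fold enrichment at the members was 3.76 at P7 and 4.18 at P14.

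The other asymmetric marks had few members at P7. H3R2me2a was in both P7 lists at Hnrnpa2b1 and Hnrnpk (2 of 10 against 14.4%) and H3R8me2a at Hnrnpa1 and Hnrnpk (2 of 10 against 13.6%). The monomethyl mark H4R3me1 was in both at Hnrnpc and Hnrnpk (2 of 10 against 14.6%). At P14 the counts were 8 of 10 for H3R2me2a against 65.9%, 10 of 10 for H3R8me2a against 45.4% and 7 of 10 for H4R3me1 against 40.8%.

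Across the 11 arginine-mark lists of P7 WT cells Hnrnpk was marked in 11, Hnrnpa2b1 in 9 and Hnrnpa1 in 8. Hnrnpc and Hnrnpl were marked in 5, Hnrnpd in 4, Hnrnpu and Ptbp1 in 3, and Hnrnpa3 and Ptbp2 in 0. Some of these rested on a summit far inside the gene alone. These were Hnrnpu in H3R2me2a replicate 2 (15967 bp) and H4R3me2s replicate 2 (8935 bp). The others were Hnrnpl in H3R8me2a replicate 1 (12956 bp) and Hnrnpd in H4R3me2s replicate 2 (4901 bp). In the 12 lists of P14 the range was narrower, from 7 for Ptbp2 and 8 for Ptbp1 to 12 for Hnrnpa1, Hnrnpa2b1 and Hnrnpk. Lists from the same cells are not independent, and genes with many annotated starts, such as Hnrnpk with 34 transcripts, have more sequence within reach of a start.

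**Figure D5:**
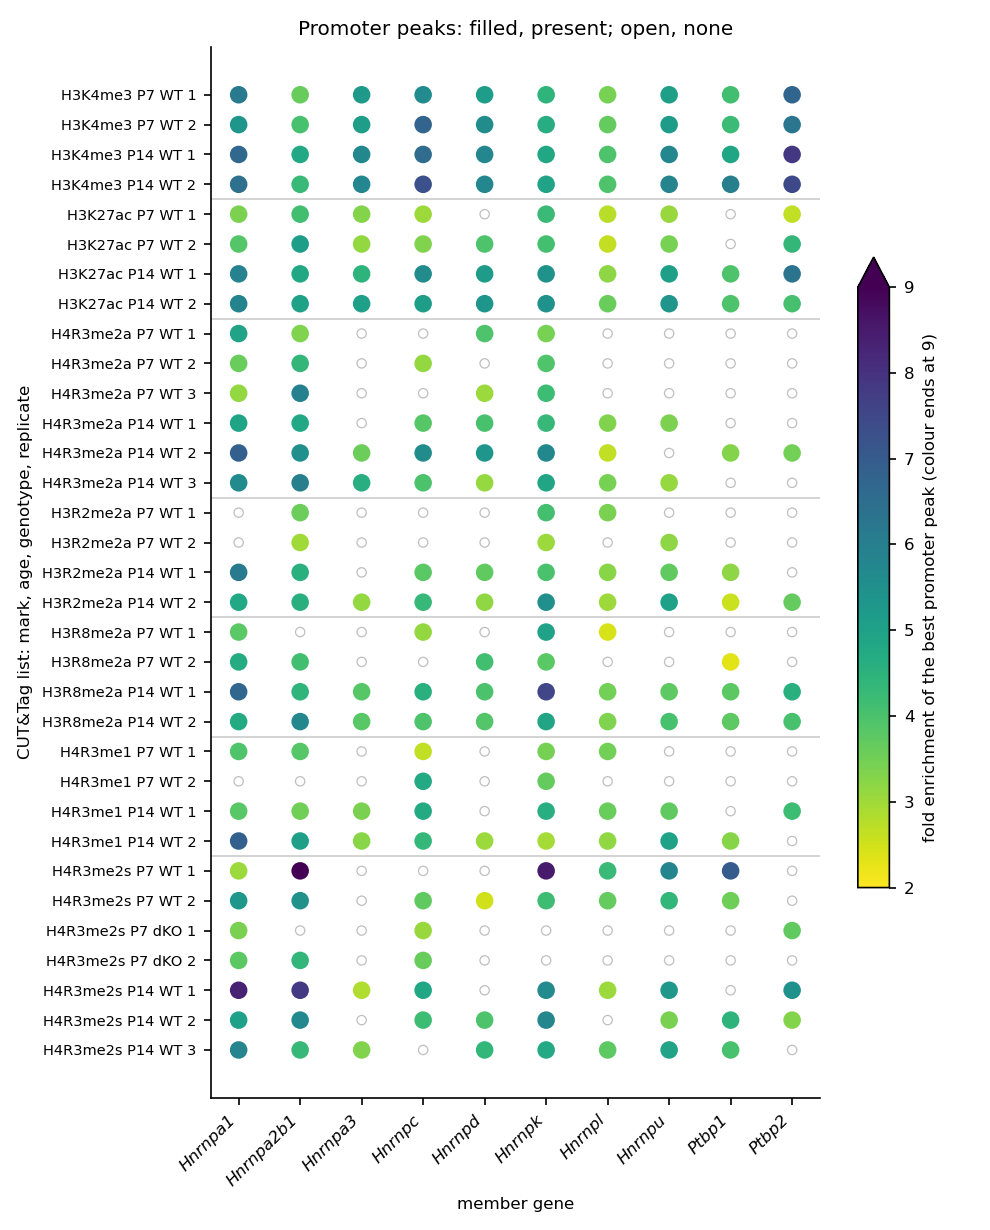
Promoter peaks of the 10 genes in the 33 peak lists, grouped by mark, age and genotype, 1 row per list and 1 column per gene, with filled points coloured by the fold enrichment of the best peak (the colour ends at 9) and open points for no peak. The P7 WT rows of the arginine marks are filled for Hnrnpk in 11 of 11 lists and for Hnrnpa3 and Ptbp2 in 0.

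H4R3me2s, the symmetric mark made by other methyltransferases, was the mark with lists of both genotypes. In P7 WT cells 6 genes had a promoter peak in both lists, Hnrnpa1, Hnrnpa2b1, Hnrnpk, Hnrnpl, Hnrnpu and Ptbp1, against 25.5% of expressed genes. In P7 Prmt1-dKO cells 2 genes had one in both lists, Hnrnpa1 and Hnrnpc, against 13.1%. Hnrnpa1 thus had it in every list of either genotype, in Prmt1-dKO at 3.41 and 3.77-fold, and Hnrnpk, Hnrnpl, Hnrnpu and Ptbp1 had it in 0 lists of Prmt1-dKO.

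The share of expressed genes marked was lower in Prmt1-dKO as well, and with 2 lists a genotype the difference was not tested. At a q-value of at most 0.01 the counts were 1 gene in WT, Hnrnpa2b1, against 2.31% of expressed genes, and 0 in Prmt1-dKO, against 0.31%. The median fold enrichment of these peaks was 4.33 in WT and 3.66 in Prmt1-dKO. In WT replicate 1 the strongest peaks of Hnrnpa2b1 (13.6-fold), Hnrnpk (8.51-fold), Ptbp1 (6.99-fold) and Hnrnpu (5.83-fold) were at starts of internal transcripts, 6894, 11140, 9627 and 8994 bp inside the gene, and each of these genes had a further summit nearer to its start. In WT replicate 2 the only H4R3me2s promoter peak of Hnrnpu was 8935 bp inside the gene, so that list held none near its gene start. At P14 the mark was in at least 2 of 3 lists at all 10 genes, against 47.3%.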

How the data were processed

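The authors trimmed bulk and Smart-seq2 reads with fastp 0.23.2 and aligned them to mm10, and RSEM gave the deposited expected counts, TPM, FPKM and average transcript length per gene and library; neither the annotation nor the strand setting of RSEM is given in the sources used here. CUT&Tag peaks were called by the authors in each sample with MACS2 2.1.0, and the deposited lists give a fold enrichment (ratio), a -log10 p-value and a -log10 q-value per peak. FPKM served only as an alternative scale for the order of levels.

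Genes were matched to GENCODE vM21 (55141 of 55401 identifiers). Expected counts were rounded to whole numbers and tested with edgeR 4.0.16 in R 4.3.3 (TMM scaling, filterByExpr with a minimum count of 10 and total of 15, quasi-likelihood test, Benjamini-Hochberg FDR under 0.05 over all genes tested). Log2 CPM used a prior count of 2. Log2 lengths were tested with limma 3.58.1, and DESeq2 1.42.0 and limma-voom were alternatives. The script was tested on simulated data at these library sizes. In the simulated bulk comparison edgeR found 73 of 100 genes changed 2-fold and 90 of 100 changed 4-fold; in the simulated Smart-seq2 comparison it found 1 and 26, and DESeq2 found 14 and 53 but also called 175 unchanged genes. Length changes were simulated at other sizes, all well under 2-fold, and in Smart-seq2 0 of 100 were found at either size. A promoter peak was a summit within 3000 bp of any vM21 transcript start, and expressed genes had a mean of at least 1 TPM in bulk WT.

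The 10 genes and the lists beside them were chosen with earlier results of these data known. Named genes were all 10 members, Prmt1, up to 3 called genes of each other list per direction, and the 3 genes most like Hnrnpa1, Ptbp1 and Ptbp2 over the bulk libraries by Pearson r among genes with a mean of at least 50.0 counts. The depth was 12396345 to 18547103 counts per RNA library, and peak lists carry no depth.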

Additional observations from a re-analysis of the deposited data

Results flagged for a closer look

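The genotype difference of 6 genes differed between sorted spermatogonia and whole testis by the interaction term of edgeR. The excess of the Smart-seq2 difference over the bulk difference was 1.81 on the log2 scale for Hnrnpa1, 1.51 for Hnrnpa3, 1.5 for Ptbp1, 1.46 for Hnrnpd, 1.27 for Hnrnpa2b1 and 0.64 for Hnrnpu, against 14.7% of all genes with a call in this direction. Assay, cell population and control genotype cannot be told apart in these values. In the same interaction 4 of 9 Sertoli cell markers and 3 of 3 endothelial markers were called higher, and their part in it was not tested.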

How the results depend on the processing

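In bulk, 100 of 110 alternative values kept their direction and side of the threshold. The 3158 genes called became 1365 to 5362 with 1 library left out, 5362 of them without mutant replicate 2, while the members called lower went from 2 to between 0 and 2 and those called higher from 0 to between 0 and 1. Without the filter on low counts 1 member, Ptbp2, was called higher. Leaving out 1 library gave Hnrnpl -0.14 to 0.0016, the latter without mutant replicate 2. The replicate numbers do not pair the samples (correlations of same-numbered deviations of 0.082, -0.221 and -0.119 in bulk and 0.018 in Smart-seq2). With the replicate block 1828 genes and 1 member were called in bulk. That member was Hnrnpd (edgeR FDR 0.0306), and the call of Hnrnpa3 was lost (FDR 0.139). For Smart-seq2, 72 of 90 alternative values kept their call; the 0 genes called became 2468 with DESeq2 and 1753 with limma-voom, and 0 to 9191 with 1 library left out, most without WT replicate 1, with 4, 2 and 0 to 5 members higher and 0 to 1 lower. Ptbp2 was at -0.95 without WT replicate 1 and 0.075 without WT replicate 2. Of the interaction values, 123 of 130 kept their call, and leaving out libraries gave 2590 to 8886 genes against 3722, 5 to 7 members higher and 0 to 1 lower. For bulk length the 81 genes called became 27 with the replicate block, 11 at a mean of at least 100 counts and 44 to 59 with 1 library left out; differences near 0 turned for Hnrnpc (-0.0079 to 0.031), Hnrnpu (-0.057 to 0.013) and Ptbp1 (-0.023 to 0.026). For Smart-seq2 length the 419 genes became 0 with the replicate block, 0 at the higher mean and 0 to 757 with 1 library left out, and Hnrnpa1 (down to -0.00022), Hnrnpa3 (-0.042 to 0.11) and Hnrnpd (-0.23 to 0.077) turned. In bulk WT, ranking by CPM, which does not divide by length, moved Hnrnpu from rank 5 to 1, Hnrnpa2b1 from 1 to 2 and Hnrnpa1 from 2 to 4. At a q-value of at most 0.01 the arginine-mark promoter pairs fell to 17 at P7 and 67 at P14, and all pairs to 156. The cause of these changes was not tested. Smart-seq2, with 2 libraries a group and a spread of 0.767, limits what could be called, and peak lists give no depth.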

Other observations

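Summed over the 10 genes, TPM in the bulk libraries was 5458, 5369 and 5098 in WT and 4535, 3346 and 4519 in Prmt1-dKO. In Smart-seq2 the sum was 2813 and 2431 in WT and 2837 and 3359 in Prmt1-dKO. Bulk mutant replicate 2 was the lowest library of its assay by this sum.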
